A study of Homo sapiens with 95 samples.

Results

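The cytosolic ribosomal protein genes were examined in AALE cells, an immortalized line of human bronchial epithelium. Members were chosen by symbol: RPL or RPS followed by a number, with or without a letter A, X or L and a further number after it (RPL22L1), and the stalk and platform genes RPLP0, RPLP1, RPLP2 and RPSA. Among 23895 symbols with counts 85 matched, and 81 of these had a mean count above 10 over all 95 wells and were kept, 50 of the large and 31 of the small subunit. Just inside that line was RPL39L, with a mean count of 13.8. Just outside it was RPSA at 8.1, while RPL3L stood at 0.2 and RPL10L at 0.0. All 81 members passed the low-count filter of every comparison.

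The ribosome is built from a large and a small subunit, each a core of ribosomal RNA clothed in ribosomal proteins, most of which are present once per ribosome. Their mRNAs are among the most abundant of a growing cell and usually begin with a 5′ terminal oligopyrimidine tract, a cytosine followed by a run of pyrimidines, through which mTOR signalling and the RNA-binding protein LARP1 control their translation. Several of the proteins also act outside the ribosome. RPL26, RPL5 and RPL11 bind the p53 mRNA or the p53 regulator MDM2, and RPS6 is the substrate of the S6 kinases.

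The 8 cell populations comprised 4 that overexpressed NRF2 (gene NFE2L2), FGFR1, NRG1 or PIK3CA, their control carrying the HcRed reporter in an otherwise empty vector, CRISPR knockouts of FAT1 and of CDKN2A, and the knockout control GFP, cells that received the pSpCas9-EGFP plasmid PX458 and no guide RNA. All were AALE cells, grown to confluency and exposed to the DMSO vehicle, to cigarette smoke condensate (CSC) at 24 µg/ml, to benzo[a]pyrene (BaP) at 173 µM or to the tobacco nitrosamine NNK at 490 µM. Sources used here do not say whether a population was derived from 1 clone. Comparisons used the 82 wells with replicate numbers of 1 digit, in groups of 3 wells. The study calls them biological replicates, and whether they came from separately grown cultures is not described, so p-values measure the spread between these wells. Each chemical had its own pair of plate rows, so chemical and row cannot be told apart. In every pair HcRed, PIK3CA, GFP and FGFR1 lay in one row and NRF2, CDKN2A, NRG1 and FAT1 in the other, each in columns of its own. FAT1 and CDKN2A against GFP, and NRF2 and NRG1 against HcRed, are therefore also one row against another, and genotype and row cannot be told apart in them, whereas FGFR1, PIK3CA and GFP shared the row of HcRed.

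To show the family's shared start-site feature, windows from 30 bases before to 20 bases after the annotated start are given for the genes on which the results turn: RPL26 and RPL41, which mark the family, RPL12, RPS6, RPS18 and RPL7A, which were among the members with the smallest adjusted p in the knockouts, and RPS21, RPL22L1 and RPL26L1, which set the overexpression populations apart. Sequences are RefSeq's on build GRCh38.p14, written 5′ to 3′ on the gene's strand, with the pyrimidine tract in capitals.
RPL26 (chr17:8383174-8383223, minus strand): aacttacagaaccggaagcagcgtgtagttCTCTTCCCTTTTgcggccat
RPL41 (chr12:56116603-56116652, plus strand): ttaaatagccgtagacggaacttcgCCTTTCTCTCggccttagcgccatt
RPL12 (chr9:127451387-127451436, minus strand): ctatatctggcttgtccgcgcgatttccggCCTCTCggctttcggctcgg
RPS6 (chr9:19380217-19380266, minus strand): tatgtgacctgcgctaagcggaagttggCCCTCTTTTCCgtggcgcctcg
RPS18 (chr6:33272045-33272094, plus strand): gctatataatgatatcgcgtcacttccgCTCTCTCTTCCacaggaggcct
RPL7A (chr9:133348188-133348237, plus strand): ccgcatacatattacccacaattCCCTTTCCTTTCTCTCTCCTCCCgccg
RPS21 (chr20:62387073-62387122, plus strand): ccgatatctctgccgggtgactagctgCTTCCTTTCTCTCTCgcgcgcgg
RPL22L1 (chr3:170870176-170870225, minus strand): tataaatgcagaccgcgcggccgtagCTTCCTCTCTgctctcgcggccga
RPL26L1 (chr5:172958699-172958748, plus strand): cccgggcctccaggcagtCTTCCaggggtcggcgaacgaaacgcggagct

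The tract searched for was a C followed by at least 4 further C or T bases, on the gene's strand, beginning within 15 bases of the start. It was found in 57 of the 65 members with an entry in the RefSeq promoter table (87.7%), against 40.8% of all 27305 promoters of that table. On the opposite strand the shares were 23.1% and 39.8%. RPL7A had the longest tract of those printed, 23 bases, and RPL26 had 12, beginning at the start itself. RPL26L1, the separate gene for a close copy of RPL26, had 5 bases, placed 12 bases before the start. The 6 letters CCGGAA are the core of the ETS family motif. They were present on either strand in 55.4% of member promoters of 300 bases and in 17.6% of all promoters. Of the windows printed, those of RPL26, RPL12, RPS6, RPS18, RPS21 and RPL22L1 belong to promoters that held these letters. Those of RPL41, RPL7A and RPL26L1 belong to promoters that did not.

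Wells held 692446 to 1895735 counts, with a median of 1293615. No pair of replicate wells agreed within sampling noise (76 pairs had chi-square values per degree of freedom of 1.13 to 11.8, median 1.44), so none was counted as a duplicate. Over the 81 members alone the values were higher, 1.46 to 46.3 with a median of 6.13, so the members' variance between wells exceeded counting error. Such values rise with a gene's count, and none are given here for other genes of like count. The members' values were highest under NNK, for example 46.3 between wells 2 and 3 of FAT1 and 28.2 between wells 1 and 3 of GFP. Well 2 of NRG1 under NNK stood apart, with values of 11.8 and 11.3 against the other wells of its group. The targeted genes checked the labels under DMSO: NFE2L2 averaged 152 CPM (the gene's counts scaled to a common library total) in NRF2 cells and 44.8 in HcRed cells, FGFR1 22.9 and 4.05, NRG1 108 and 0.258, PIK3CA 11.9 and 2.17, FAT1 1.9 in the knockout and 8.35 in GFP cells, and CDKN2A 21.4 and 36.7. All 13 bronchial epithelial markers were counted in all 82 wells, led by S100A2, summing to 3448 to 9890 CPM, whereas the markers of fibroblasts, leukocytes and endothelium summed to 9.57 to 56.1 CPM, with CD3E, CDH5 and VWF at 0 throughout.

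The 81 genes together took 31.4% ± 2.69 (SD, n = 82 wells) of all counts, 18.4% for the large and 13.0% for the small subunit. The share was highest in FAT1 knockout cells and lowest in CDKN2A knockout cells. Under DMSO it was 36.8% ± 0.480 (SD, n = 3) in FAT1 cells, 31.4% ± 0.376 in GFP cells and 27.3% ± 0.399 in CDKN2A cells, so that the 3 groups did not overlap. FAT1 lay 5.39 percentage points above GFP, and CDKN2A 4.02 percentage points below it (difference -4.02). Both knockouts shared a row with NRF2 and NRG1, whose shares lay between theirs. The other populations lay between 29.9% ± 0.448 in PIK3CA and 31.8% ± 0.127 in NRF2, with HcRed at 30.8% ± 0.153, FGFR1 at 30.6% ± 0.545 and NRG1 at 31.5% ± 0.299. In this order the wells of neighbouring populations overlapped from PIK3CA over FGFR1 to HcRed and from GFP over NRG1 to NRF2, but not between HcRed and GFP. The FAT1 share stayed between 34.7% and 38.4% in all 12 FAT1 wells, whatever the chemical, and the highest share in any well of another population was 32.7%. In bulk wells such as these, fewer cells with a high level and less RNA per cell cannot be told apart, and a share also moves with the rest of the library.

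**Figure D1:**
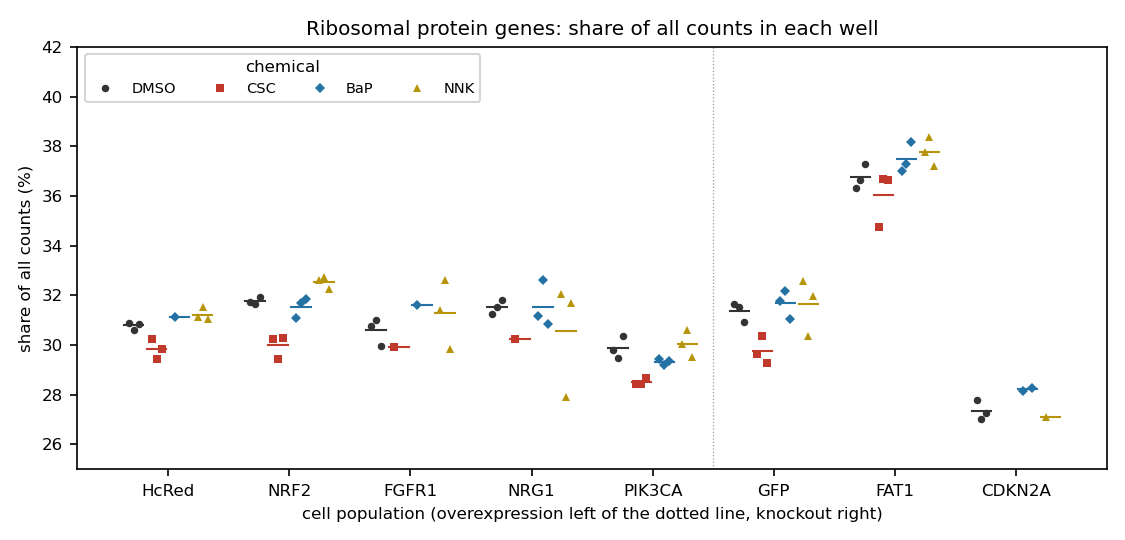
Share of all counts (percent, axis starting at 25) taken by the 81 ribosomal protein genes in each of the 82 wells, by population along the x axis and chemical by colour and marker; bars are group means. All FAT1 wells lie at 34.7% or above, and CDKN2A wells lie between 27.0% and 28.3%.

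Levels within the family covered a wide range. Because counting at the 3′ end gives about 1 count per captured molecule whatever the transcript's length, CPM was read as a level between genes without a length term. The highest were RPL41, the shortest ribosomal protein, at 14178 CPM over the 82 wells, RPS6 at 10788, RPS18 at 10389, RPS27 at 10345 and RPS23 at 8824. Among the lowest were RPS26 at 234, RPL7L1 at 99.0, RPS10 at 93.4 and RPL39L, a copy of RPL39 known for expression in testis and tumours, at 10.3. Readings of RPS6 and RPS26 thus lay far apart, while RPL7L1 and RPL39L are separately encoded copies of other members. How far read assignment enters such differences between genes was not tested. RPS10, among the lowest, is also a gene whose 3′ sequence is shared with another transcript.

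Across the 8 populations under DMSO, all 81 members differed by edgeR's quasi-likelihood F test (adjusted p under 0.05), against 40.3% of all genes tested. The ratio of the highest to the lowest population mean ran from 1.14 to 5.37 with a median of 1.54, and exceeded 1.5 for 47 members. FAT1 was the highest population for 38 members and CDKN2A the lowest for 36. Among members with at least 50 CPM, RPL22L1, a copy of RPL22, had the widest ratio, 5.37, from 131 CPM in GFP to 702 in NRG1. RPL26 followed with a ratio of 2.87, from 3512 CPM in CDKN2A to 10073 in FAT1. RPS21, a small-subunit protein, had a ratio of 2.69 between FAT1 (5935 CPM) and PIK3CA (2207 CPM). RPS6 had a ratio of 2.46 and RPL13A one of 2.28, both again between FAT1 and CDKN2A.

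**Figure D2:**
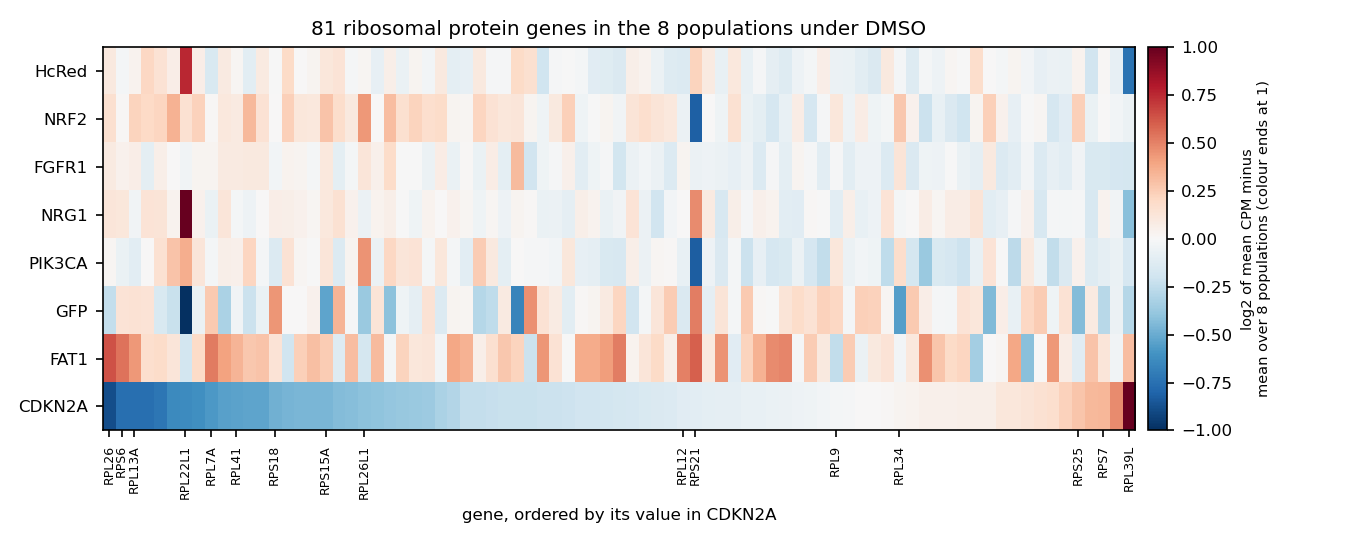
Mean level of the 81 ribosomal protein genes in the 8 populations under DMSO (3 wells each), as log2 of mean CPM minus the gene's mean over the 8 populations; genes run along the x axis ordered by their value in CDKN2A, with a selection of those named in the text labelled, and the colour scale ends at 1 in both directions. The FAT1 row is mostly above and the CDKN2A row mostly below 0, with a minority of genes at the other sign in each.

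The knockout of FAT1, which encodes an atypical cadherin, was compared with GFP cells. Under DMSO 59 of the 81 members were higher in FAT1 cells and 9 lower, while 13 did not pass (limma with voom weights, Benjamini-Hochberg adjusted p under 0.05). Among all genes tested 6.39% were higher and 7.7% lower, but abundant genes pass more often. Among genes with a mean count above 1000, 51 of 65 members were higher (78.5%) and 7 lower (10.8%), against 26.7% and 42.5% of the 146 others, called abundant others below. The median log2 fold change of the 81 members was 0.31, against -0.01 for all genes tested and -0.05 for the abundant others. Large-subunit genes were higher in 37 of 50 cases and lower in 5, with a median of 0.33, and small-subunit genes were higher in 22 of 31 and lower in 4, with a median of 0.24.

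RPL26 gave 9751, 10052 and 10416 CPM in the 3 FAT1 wells and 5540.0, 5567 and 5411 in the 3 GFP wells. The groups lay far apart, and the log2 fold change was 0.92 (SE 0.0247, limma adjusted p = 9.46e-54). RPS15A, a small-subunit protein, rose from 3207, 3107 and 3062 CPM to 5326, 5206 and 5544, a log2 fold change of 0.83 (limma adjusted p = 2.6e-42). RPL12, part of the base of the stalk on which elongation factors dock, read 9022.5, 9134 and 9278 CPM in FAT1 against 5929, 5846 and 5723 in GFP (log2 fold change 0.70). RPL41 changed less, from 13867, 13478 and 13111.5 CPM to 17086, 17391.5 and 17999.8, a log2 fold change of 0.43 (SE 0.0171, limma adjusted p = 5.39e-40). RPS6 changed by 0.45 on the log2 scale.

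A minority moved the other way, also without overlap between the groups. RPL9, a large-subunit protein, fell from 4075.5, 4100 and 3972.5 CPM in GFP to 2940.0, 2913 and 2997 in FAT1 (log2 fold change -0.40, limma adjusted p = 4e-20). RPS18, a protein of the head of the small subunit, fell from 13938, 13591 and 13323 CPM to 10987, 10966 and 11006 (log2 fold change -0.25). RPS16 fell by 0.24 on the log2 scale. The HcRed readings lay below FAT1 for RPS18, at 9721 to 10185 CPM, and overlapped FAT1 for RPS16, at 4462 to 4679.8 CPM against 4624 to 4867.

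The FAT1 difference was present under each chemical, with GFP cells under the same chemical as controls. Under CSC 51 members were higher and 4 lower (all genes 4.75% and 6.41%), under BaP 57 and 6 (5.45% and 6.15%) and under NNK 59 and 4 (6.48% and 6.99%), with median log2 fold changes of 0.36, 0.35 and 0.40. RPL26 read 9599, 10105 and 10032 CPM in FAT1 under CSC against 5358.5, 5343 and 5340.4 in GFP, a log2 fold change of 0.97 (limma adjusted p = 1.27e-24). It was 1.00 under BaP and 1.01 under NNK. RPL12 changed by 0.81 (CSC), 0.76 (BaP) and 0.78 (NNK) on the log2 scale, and RPS15A by 0.85, 0.78 and 0.83. RPL9 was lower throughout (-0.33, -0.40 and -0.38), RPS16 likewise (-0.19, -0.25 and -0.19), and RPL7L1, a separately encoded copy of RPL7, was lower by -0.44 under CSC and -0.51 under NNK. RPS18 was lower throughout as well (-0.17, -0.23 and -0.13). The difference between FAT1 and GFP depended on the chemical for 2 members in a test of the interaction, RPL18 and RPS15, against 0.152% of all genes.

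**Figure D3:**
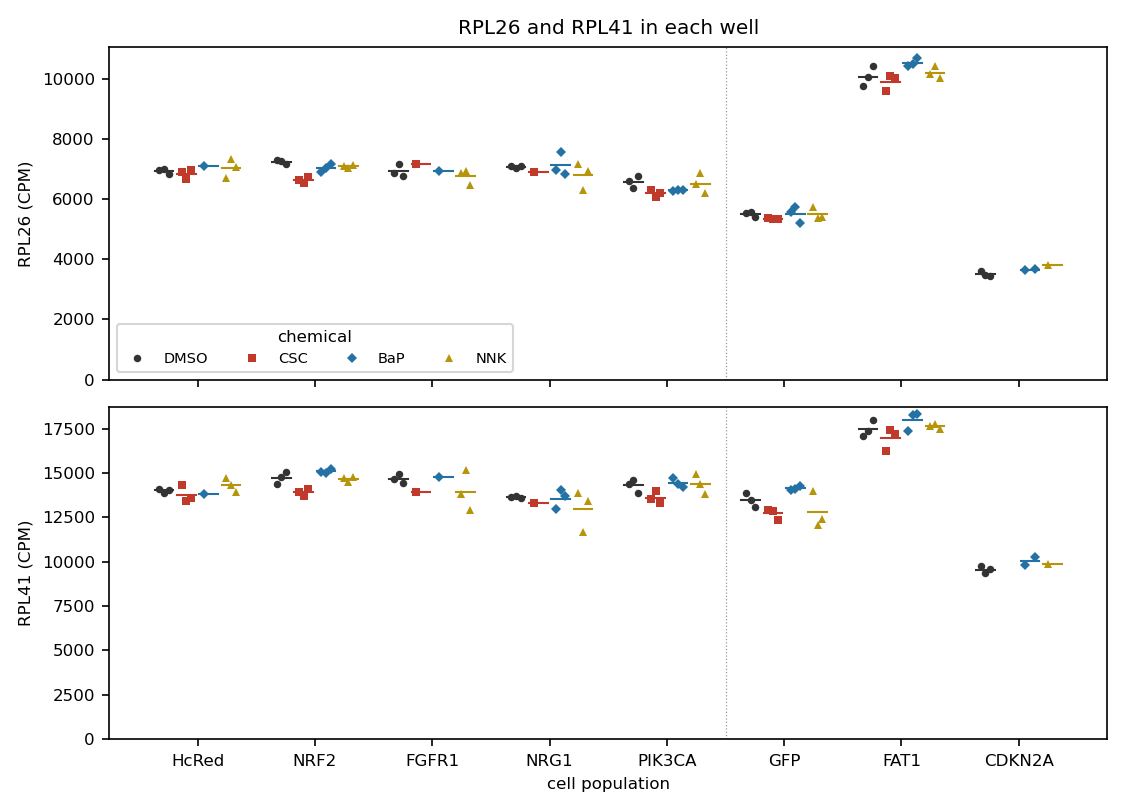
CPM of RPL26 and RPL41 in each of the 82 wells by population (x axis) and chemical (colour and marker), with bars at group means. For RPL26 the FAT1 wells lie above all other wells under every chemical and the CDKN2A wells lie lowest.

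CDKN2A encodes the cell-cycle inhibitor p16 and, in another frame, ARF, a nucleolar protein that restrains MDM2. In its knockout under DMSO, against the same GFP wells as FAT1, 48 members were lower and 7 higher, and 26 did not pass. Among all genes tested 9.22% were lower and 8.64% higher, while above a mean count of 1000 the shares were 60% and 7.69% of members and 50.7% and 14.4% of the abundant others. The members' median log2 fold change was -0.33, against 0.03 for all genes tested and -0.23 for the abundant others, so abundant genes outside the family were often lower as well. The large subunit had 30 of 50 lower and 5 higher, the small subunit 18 of 31 lower and 2 higher, with medians of -0.32 and -0.33.

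RPS18 fell from the GFP readings given above to 7414, 6918 and 7177 CPM, a log2 fold change of -1.03 (SE 0.0629, limma adjusted p = 6.36e-27). RPS6 fell from 11529, 11211 and 11420.4 CPM to 6133, 6000.3 and 6227, by 1.00 on the log2 scale (limma adjusted p = 1.94e-25). RPL7A, a large-subunit protein, read 5097, 4985 and 5173 CPM in GFP and 2930.4, 2824 and 2803 in CDKN2A cells (log2 fold change -0.94). RPL26 stood at 3612, 3479 and 3445 CPM in CDKN2A cells, 0.76 lower on the log2 scale (log2 fold change -0.76, limma adjusted p = 3.05e-15), and RPL41 at 9748, 9341 and 9572 CPM (log2 fold change -0.60). These 5 genes were thus low in all 3 wells, with no overlap with GFP.

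A few members rose in CDKN2A cells without overlap with GFP. RPS25, a small-subunit protein used by viral internal ribosome entry sites, read 4744, 4451 and 4657 CPM against 2754, 2909 and 2768 in GFP (log2 fold change 0.61, limma adjusted p = 3.04e-10). RPS7 read 6224, 5935.5 and 6336 against 4021, 4059 and 4034 (log2 fold change 0.50). RPL34 read 5535, 5299.7 and 5585 against 3793, 3688 and 3514 (log2 fold change 0.47), but overlapped HcRed wells, at 5257 to 5375. RPL12, among the genes that rose most in FAT1, was not past the threshold here (log2 fold change -0.07, limma adjusted p = 0.519). Markers moved with these groups as well: MALAT1, the highest single gene, took 3.47% of counts in CDKN2A, 2.37% in FAT1 and 2.25% in GFP cells under DMSO, and the summed epithelial markers were 7310 to 8281 CPM in CDKN2A, 3857 to 4119 in FAT1 and 6227 to 6747 in GFP wells. Of the 13 epithelial markers 5 were lower in FAT1, among them KRT14 (log2 fold change -3.19) and S100A2 (-0.73), and 3 higher, EPCAM (0.62), KRT18 (0.52) and KRT19 (0.38), and 2 rose and 2 fell in CDKN2A. Their part in the family's differences was not tested.

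**Figure D4:**
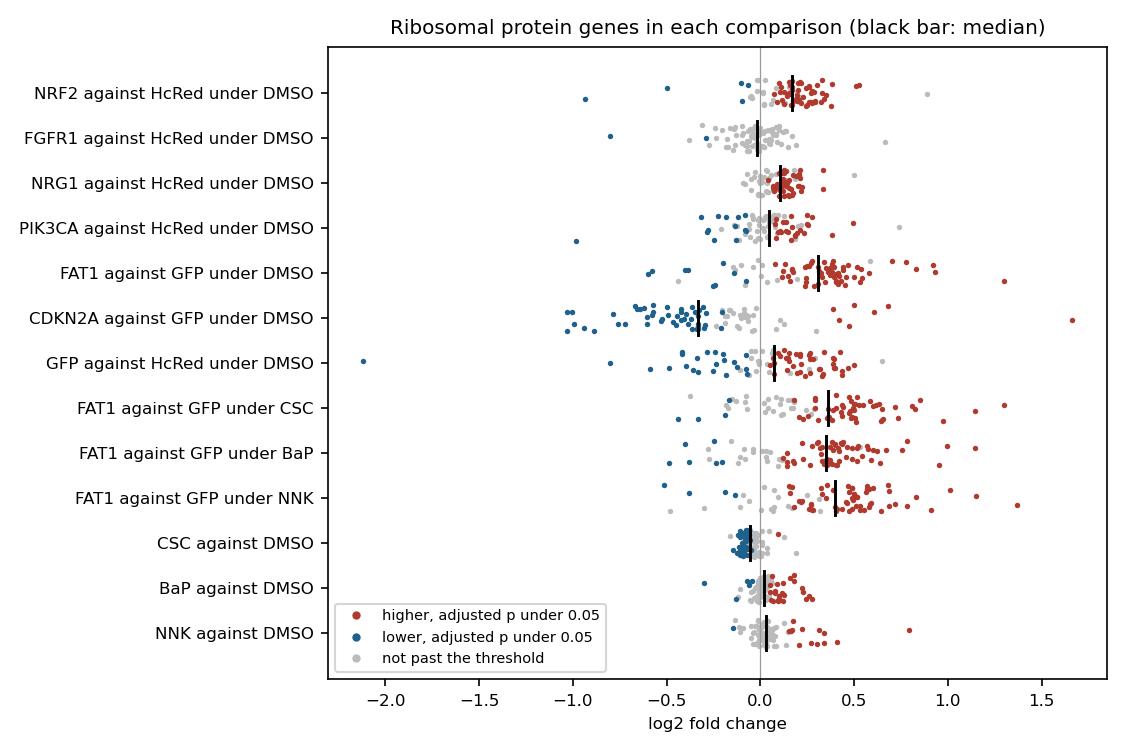
log2 fold change of each of the 81 members in the 13 comparisons (x axis, log2 scale), coloured by whether the adjusted p passed 0.05 and the direction; black bars mark the medians. The 4 FAT1 comparisons lie to the right (medians 0.31 to 0.40), CDKN2A to the left (median -0.33), and the 3 chemical comparisons lie close to 0.

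Position on the chromosomes was taken from GENCODE release 44 on hg19. RPS6 (chr9:19375713-19380234, minus strand) starts 2.62 Mb from CDKN2A. On chromosome 9 the 407 other tested genes had a median log2 fold change of -0.42 in CDKN2A cells and 25.1% of them were lower. Of the 4 members on chromosome 9, RPS6, RPL7A and RPL35 were lower and RPL12 was not past the threshold. Around RPS6, picked for this after its values were seen, the 4 tested genes within 1 Mb had a median of -0.96. Elsewhere the setting differed between chromosomes. On chromosome 19, 10 of 12 members were lower, and the 701 other genes had a median of -0.04, with 5.42% of them lower. On chromosome 17 RPL26 (chr17:8280834-8286531, minus strand) fell by 0.76, while the 597 other genes had a median of 0.21. The 27 genes tested within 1 Mb of RPL26 had a median of -0.09. On chromosome 13 the 1 member, RPL21, fell by 0.99 and the other genes had a median of -0.36. Chromosomes 12 and 15 had 3 of 4 and 4 of 4 members lower, with medians of -0.20 and -0.15 for their other genes. Of those other genes 14.6% and 11.3% were lower. Whether position had a part was not tested.

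In FAT1 cells the same comparison was made. RPL26 rose by 0.92 on the log2 scale, the 26 tested genes within 1 Mb had a median of 0.26 and 3 of them passed as higher. RPL41 (chr12:56510374-56511751, plus strand) rose by 0.43, with a median of 0.20 for its 37 tested neighbours, 4 of which were higher. Chromosome 19 held 12 members, 7 higher and 1 lower. Its 669 other genes had a median of -0.18, with 2.09% higher and 7.32% lower. On chromosome X the 4 members had a median of 0.52 and the 333 other genes one of -0.36. On chromosome 6, 2 of 5 members were higher and 3 lower. The other genes there had a median of -0.20, with 3.35% higher and 16.4% lower. All 4 members on chromosome 12 and all 4 on chromosome 5 were higher, beside medians of 0.21 and 0.17 for the other genes. Of those other genes 11.7% and 13.0% were higher. The part of position was not tested in FAT1 either. Counts were also split by the start-site tract. With a tract 41 of 57 rose in FAT1 (median 0.29) and 32 of 57 fell in CDKN2A (median -0.33), and without one 5 of 8 rose (median 0.35) and 6 of 8 fell (median -0.38).

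Other genes of the translation machinery were followed by lists. A list of translation factors and partners, taken as bearing the pyrimidine tract, also held non-coding hosts of small nucleolar RNAs. How many of its genes held the tract was not counted. Of its 23 tested genes, 12 rose and 3 fell in FAT1 cells under DMSO (median log2 fold change 0.23). In CDKN2A cells 1 rose and 14 fell (median -0.35). Of all genes tested 6.39% rose and 7.7% fell in FAT1, and 8.64% and 9.22% in CDKN2A. Of the abundant others 26.7% rose and 42.5% fell in FAT1 (median -0.05), and 14.4% and 50.7% in CDKN2A (median -0.23). Neither this list nor those below were compared at matched abundance. The elongation factor EEF1A1 changed by 0.37 in FAT1 and -0.25 in CDKN2A, EEF2 by 0.42 and -0.60, and GNB2L1, the ribosome-bound scaffold RACK1, by 0.44 and -0.35. GAS5, a non-coding host of small nucleolar RNAs, changed by 0.92 and -0.26. TPT1, a growth-related protein with a tract-bearing mRNA, fell in both, by 0.21 and 0.75 on the log2 scale.

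Nucleolar factors that assemble ribosomes were split. Of 41 tested, 6 rose and 6 fell in FAT1 (median 0.16) and 5 rose and 3 fell in CDKN2A (median 0.10). In FAT1 GNL3, a nucleolar GTPase, rose by 0.64 on the log2 scale, while NCL, nucleolin, fell by 0.43 and NOP10, a component of the pseudouridylation complex, by 0.50. Of 15 genes for mTOR signalling and its targets 1 passed in FAT1, namely EIF4EBP1, the translation repressor 4E-BP1, with a log2 fold change of -0.53. In CDKN2A cells 3 rose and 2 fell, among them MYC, a driver of ribosome production, at 1.78. Of 15 genes for ribosomal protein chaperones, importers and surveillance, 2 rose and 1 fell in FAT1, where MDM2 rose by 0.99, and 2 passed in CDKN2A, both lower. Genes for mitochondrial ribosomal proteins, encoded separately from the cytosolic ones, split in FAT1 (19 higher and 13 lower of 75, median 0.13) and in CDKN2A (17 higher and 9 lower, median 0.17).

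The overexpression populations were each compared with the same HcRed wells under DMSO. In NRF2 cells, which overexpress the transcription factor of the antioxidant response, 55 members were higher and 5 lower against 3.39% and 1.52% of all genes tested. Above a mean count of 1000 the shares were 76.9% and 6.15% of members and 52.7% and 8.9% of the abundant others. The members' median log2 fold change was 0.17, against -0.01 for all genes and 0.13 for the abundant others. Scaling by library total alone instead of TMM, the trimmed mean that discounts strongly changed genes, gave 39 higher and 14 lower. RPS3A, a small-subunit protein, read 7267, 7211 and 7233 CPM against 6165, 6032.5 and 6027 in HcRed (log2 fold change 0.35, limma adjusted p = 2.74e-27). RPL34 rose by 0.38, RPS23, which lines the decoding centre, by 0.29, RPL41 by 0.17 and RPL26 by 0.16. All were small changes that exceeded the narrow spread between wells.

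RPS21 was the strongest exception. It read 2169, 2264 and 2238 CPM in NRF2 cells and 4730.3, 4430.3 and 4508 in HcRed cells, a log2 fold change of -0.94 (SE 0.0292, limma adjusted p = 1.84e-40). PIK3CA cells, which overexpress the catalytic subunit of PI3 kinase, gave a like reading, 2198, 2131 and 2291 CPM (log2 fold change -0.98, limma adjusted p = 5.61e-38). FGFR1 cells stood at 3916, 3659 and 3681 CPM (-0.29) and NRG1 cells at 5261, 5374 and 5625 (0.33). The knockout populations and GFP spanned 3507 to 6017 CPM, so both NRF2 and PIK3CA lay below every other population.

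In PIK3CA cells the members were split, 24 higher and 13 lower, against 3.36% and 2.05% of all genes. A smaller share of members (33.8%) than of the abundant others (41.8%) was higher above a mean count of 1000, and 18.5% and 10.3% were lower. The members' median was 0.05. With library totals alone 17 were higher and 23 lower, so the larger side depended on the scaling. RPL35 read 6251, 6112 and 6461.5 CPM against 5353, 5604 and 5563 in HcRed (log2 fold change 0.25), and RPL34 and RPS3A rose by 0.25 and 0.21. RPS27, a zinc-finger protein of the small subunit, fell from 9933, 10018 and 10044.5 CPM to 7964, 8073 and 7575 (log2 fold change -0.28, limma adjusted p = 2.51e-20), and RPS3, which lies at the mRNA entry channel, fell by 0.28 on the log2 scale. RPL41 was 0.10 higher, while RPL26 was not past the threshold (log2 fold change -0.01, limma adjusted p = 0.814).

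NRG1 cells, which overexpress the ERBB receptor ligand neuregulin, had 44 members higher and 0 lower by limma, with 54 at an unadjusted p under 0.05 in either direction, against 2.08% and 0.998% of all genes. Above a mean count of 1000, 66.2% of members and 28.8% of the abundant others were higher. With library totals alone the split was 26 and 9. RPS6 rose from 10144, 10247 and 10180.0 CPM to 11197, 11284.5 and 11096, a log2 fold change of 0.21 (SE 0.0104, limma adjusted p = 6.75e-30). RPS27 rose by 0.17 and RPL26 by 0.11. RPL41 passed with a log2 fold change of 0.04 (limma adjusted p = 0.00292), yet with library totals alone it was lower (-0.04), so no direction is given for it. Fitted over all chemicals with every well, 0 members passed in NRG1 by limma, 1 had an unadjusted p under 0.05, and 44 passed once well 2 of NRG1 under NNK was left out, an alternative added after seeing the data. Markers moved with the overexpression populations too. In NRG1 7 of 13 epithelial markers passed, all lower (median -0.38), among them KRT14 and KRT17, and DCN, the fibroblast proteoglycan decorin, was higher. Epithelial sums were 5296 to 5684 CPM in NRG1 and 6846 to 7468 in HcRed, and the sums of other cell type markers were 29.1 to 39.0 and 20.6 to 27.9. Epithelial markers split 4 higher and 3 lower in NRF2, 4 and 6 in PIK3CA and 2 and 4 in FGFR1. Their part in the members' values was not tested.

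FGFR1 cells, which overexpress a receptor for fibroblast growth factors, had 0 members higher and 2 lower by limma, and 16 at an unadjusted p under 0.05, against 0.501% and 0.413% of all genes. With edgeR and with DESeq2 1 member passed. Library totals alone gave 11 higher and 17 lower, and leaving out well 3 of FGFR1 gave 41 members past the threshold. RPL22L1 was 341.5, 323 and 360.3 CPM against 655.5, 562 and 558 in HcRed (log2 fold change -0.80, limma adjusted p = 1.29e-10), and RPS21 fell by 0.29 (limma adjusted p = 0.0161). That call for RPS21 was lost with a replicate block (limma adjusted p = 0.205), with edgeR (adjusted p = 0.215), with DESeq2 (adjusted p = 0.0688) and without well 1, 2 or 3 of HcRed (limma adjusted p = 0.447, 0.0785 and 0.313). RPL26 (-0.01, limma adjusted p = 0.983) and RPL41 (0.06, limma adjusted p = 0.851) did not pass.

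The 2 controls differed from each other as much as some perturbed populations differed from theirs. In GFP against HcRed cells under DMSO 40 members were higher and 22 lower, against 5.94% and 4.86% of all genes, with a median of 0.07. Above a mean count of 1000 the shares were 55.4% and 26.2% of members and 50% and 21.9% of the abundant others, close to each other. RPL22L1 was 129, 137 and 126 CPM in GFP cells, the lowest of all populations, and its log2 fold change was -2.12 (SE 0.0878, limma adjusted p = 3.78e-24). RPS18 was 0.50 higher, RPLP1, a protein of the acidic stalk, 0.39 higher (7010, 7075 and 7047 CPM against 5663, 5503 and 5567), and RPL35 0.39 higher. RPS15A fell by 0.59, RPL34 by 0.49 and RPL26 by 0.28 on the log2 scale, and RPL41 was not past the threshold (-0.01, limma adjusted p = 0.767). RPS15A in FAT1 (5206 to 5544 CPM) was above GFP by 0.83 on the log2 scale, yet HcRed wells stood at 4816 to 4896.

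Genes with a separately encoded copy were followed as pairs. RPL22 and RPL22L1 passed in opposite directions in both knockouts under DMSO: RPL22 changed by -0.20 and RPL22L1 by 1.30 in FAT1 (298, 344 and 283 CPM against the GFP values above), and by -0.21 and 0.68 in CDKN2A. Both used the same GFP wells, the highest population for RPL22 (2971 CPM) and the lowest for RPL22L1 (131). HcRed averaged 2348 and 592 CPM, FAT1 2487 and 309, and CDKN2A 2764 and 226. In FAT1 RPL22 passed under BaP (-0.21) but not under CSC (-0.07) or NNK (-0.06), while RPL22L1 passed under all 3. In GFP against HcRed the pair changed by 0.39 and -2.12, and in NRF2 against HcRed by 0.20 and -0.50. In the other populations RPL22L1 alone passed, at -0.80 in FGFR1, 0.33 in NRG1 and -0.32 in PIK3CA, with RPL22 at -0.07, -0.0011 and 0.10. RPL26L1 rose in NRF2 (759, 737.5 and 750.4 CPM against 521, 569 and 590.1, log2 fold change 0.51) and in PIK3CA (735, 781 and 749 CPM, 0.49), where RPL26 changed by 0.16 and -0.01. RPL39L was 29.0, 30.2 and 26.7 CPM in CDKN2A cells and 6.71, 7.48 and 10.3 in GFP cells, a log2 fold change of 1.66 (limma adjusted p = 7.26e-06), while RPL39 did not pass (0.11). RPS27L, a target of p53, fell by 0.34 in CDKN2A cells, and RPL7L1 by 0.58 in FAT1 cells, where RPL7 rose by 0.38. RPL36AL, outside the symbol rule, lay between 1234 CPM in FAT1 and 1482 in PIK3CA and GFP.

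How far reads can be assigned to a single member was checked in transcript sequence of the same hg19 annotation, with windows of the 46 bases sequenced over the last 500 bases of each transcript. The annotated transcript used was long for some members, at 7573 bases for RPL37, 7136 for RPL14, 4535 for RPL27A and 3252 for RPS23. Whether the reads came from its last 500 bases was not tested. In the transcripts used, every window of 76 of 81 members was found in no other gene of the family. RPL17 kept 4.18% of windows to itself, the rest being shared with the readthrough gene RPL17-C18orf32, and RPS10 kept 20.7%, shared with RPS10-NUDT3. RPL26 and RPL26L1 shared none. Counting annotated pseudogenes as well, the median member kept 97.1% in the transcripts used and 19 members kept under 50%. Among these were RPL21 at 8.13%, with 69 pseudogenes, RPS3A at 11.6%, RPL12 at 40.7% and RPL26 at 49.9%. RPS18 kept 52.3% and RPL41 64.2%. Whether pseudogene transcripts were among the sequences aligned to is not given in the sources used here, so levels of these members are uncertain. RPL17 and RPS10 are uncertain in both level and change. For RPL37, RPL14, RPL27A and RPS23, which kept 100% in their long transcripts, these windows do not settle how far reads can be assigned.

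CSC was compared with DMSO across the 5 populations with 3 wells under both (FAT1, GFP, HcRed, NRF2 and PIK3CA, 30 wells). Of the members 36 were lower and 1 higher, against 2.86% and 2.95% of all genes, with a median log2 fold change of -0.06. Above a mean count of 1000, 52.3% of members and 23.3% of the abundant others were lower. Mean shares of counts were lower under CSC in each of these populations, for example from 31.4% to 29.8% in GFP and from 31.8% to 29.98% in NRF2. In FAT1 the mean went from 36.8% to 36.0%, and CSC wells 2 and 3 (36.7% and 36.6%) lay within the DMSO range of 36.3% to 37.3%. RPS7 read 3597, 3760 and 3569 CPM in GFP under CSC against 4021, 4059 and 4034 under DMSO, and in the fit over populations it fell by 0.11 on the log2 scale, lower in 5 of 5 (limma adjusted p = 2.06e-07). RPL5, which binds 5S ribosomal RNA and MDM2, changed by -0.13 and RPL22 by -0.12. RPL41 changed by -0.06 (limma adjusted p = 0.0146) and RPL26 by -0.05 (limma adjusted p = 0.0516). RPL6 was the member that rose (0.09). The response differed between populations for 0 members by edgeR's interaction test, with 4 at an unadjusted p under 0.05, against 0.141% of all genes called.

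BaP was compared across FAT1, GFP, NRF2, NRG1 and PIK3CA (30 wells). Here 24 members were higher and 5 lower, against 5.04% and 4.12% of all genes, with a median of 0.02. Smaller shares of members than of the abundant others passed above a mean count of 1000, 30.8% and 36.3% as higher and 6.15% and 17.8% as lower. The split was 17 and 10 with TMM factors from genes outside the family and 15 and 23 with library totals alone, so the larger side depended on the scaling. RPS19, the gene most often mutated in Diamond-Blackfan anaemia, read 2450, 2203 and 2356 CPM in GFP under BaP against 1919, 1946 and 2052 under DMSO, and rose by 0.26 on the log2 scale over 5 of 5 populations (limma adjusted p = 2.01e-16). RPLP1 rose by 0.16. RPL5 changed by -0.13 and RPS7 by -0.07. The comparisons of CSC, BaP and NNK share DMSO wells. RPL41 rose by 0.07 and RPL26 did not pass (0.05, limma adjusted p = 0.0652).

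NNK was compared across 7 populations, all but CDKN2A (42 wells). It had 13 members higher and 1 lower, against 3.07% and 4.15% of all genes, with a median of 0.03. Above a mean count of 1000, 16.9% of members and 11% of the abundant others were higher. Library totals alone gave 13 higher and 19 lower, and 54 members passed once well 2 of NRG1 was left out. RPS23 read 9057, 8529 and 8797 CPM in GFP under NNK against 7328.5, 7369 and 7379 under DMSO, and rose by 0.34 on the log2 scale, higher in 7 of 7 populations (limma adjusted p = 1.39e-09). RPL26 (0.03, limma adjusted p = 0.713) and RPL41 (0.02, limma adjusted p = 0.827) did not pass.

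Genes of the related lists were followed under the chemicals as well. Of the 23 genes on the list of translation factors 3 fell and 1 rose under CSC. Under BaP 3 fell and 2 rose, and under NNK 2 fell and 1 rose. Of all genes tested 2.86% fell and 2.95% rose under CSC, 4.12% and 5.04% under BaP, and 4.15% and 3.07% under NNK. PABPC1, the poly(A)-binding protein, was lower under all 3, by -0.28, -0.19 and -0.28. Of the 41 assembly factors 5 rose and 0 fell under CSC, and those 5 included BRIX1 and GNL3. Under BaP 1 rose and 3 fell, and under NNK 0 rose and 2 fell. Of the 15 chaperone, importer and surveillance genes 0 rose under any chemical, while 2 fell under CSC, 1 under BaP and 4 under NNK. Of the 75 mitochondrial ribosomal protein genes 3 rose and 0 fell under CSC, 10 and 1 under BaP, and 3 and 0 under NNK. MYC was higher under each chemical, by 0.66, 0.66 and 0.42. Of the 13 epithelial markers 5 passed under CSC and 5 under BaP, all lower, among them KRT14 (-0.87 and -0.95), and under NNK 3 were lower, among them KRT14 (-0.36), and 3 higher, CDH1 (0.56), S100A2 (0.35) and KRT17 (0.21). The median of these markers was -0.02, -0.15 and -0.08, and their part in the members' values was not tested.

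Within groups of 3 wells some members jumped under NNK and BaP. For the 65 members with a mean count above 1000, a ratio over 1.25 between the highest and lowest well of a group occurred in 1 of 520 sets under DMSO (0.192%), 3 of 325 under CSC (0.923%), 12 of 325 under BaP (3.69%) and 36 of 455 under NNK (7.91%). For 146 other genes of that count the shares were 1.03%, 1.51%, 0.959% and 9%. RPLP2, the partner of RPLP1 in the stalk, read 1233, 3391 and 1121 CPM in the 3 FAT1 wells under NNK. RPL18 read 396, 782 and 346 CPM in GFP under BaP. Barcodes of the wells differed between the chemicals too, with a mean of 1 G or C base of 6 under DMSO, 1.24 under CSC, 4.74 under BaP and 5 under NNK, and the part of barcode or plate row in these jumps was not tested.

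**Figure D5:**
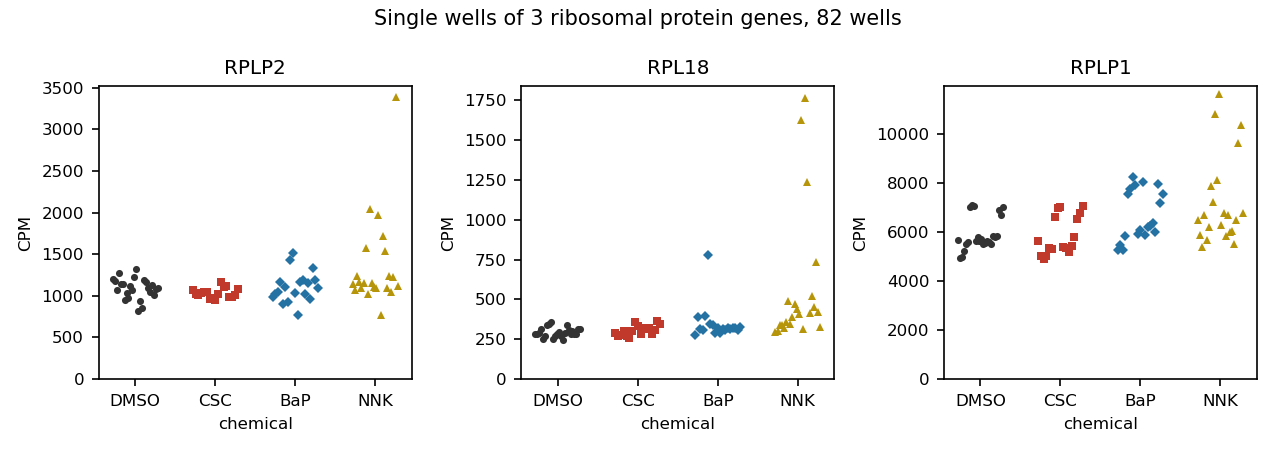
CPM in single wells by chemical for RPLP2, RPL18 and RPLP1, members with wells far from the others of their group; each point is 1 well and axes start at 0. RPL18 reaches 1240 to 1764 CPM in NRF2 wells under NNK, and RPLP2 reaches 3391 CPM in 1 FAT1 well under NNK.

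Response to the chemical differed between populations for 2 members under BaP, RPL28 and RPL18, with 0.177% of all genes called, and for 2 under NNK, RPL18 and RPLP2, with 0.0881% called. RPL18 under NNK read 1623, 1764 and 1240 CPM in NRF2 cells. Its log2 ratio to DMSO was 2.29 there and 0.14 to 0.72 in the other 6 populations. It rose over all 7 populations by 0.79 on the log2 scale (limma adjusted p = 4.82e-10).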

How the data were processed

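RNA of 95 wells was profiled by 3′ digital gene expression. The authors deposited unnormalized UMI counts per gene symbol; by their methods read 1 held a barcode of 6 bases and a molecular identifier of 10, the 46 bases of read 2 were aligned to hg19 RefSeq transcripts with BWA 0.7.10 (submitters' processing notes), and each identifier was counted once per gene and well. The smallest of the 82 wells used held 692446 counts, and the members' spread between replicate wells exceeded counting error. Not in the comparisons were 13 wells with replicate numbers of 2 digits, in 6 groups.

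CPM used library totals. Differences were tested in R 4.3.3 with limma 3.58.1 (voom weights, TMM factors from edgeR 4.0.16) over genes with a mean count above 1, two-sided, with Benjamini-Hochberg adjustment over all genes tested and a threshold of 0.05. Chemicals were fitted with population as a covariate. The difference among 8 populations and the interactions were tested by edgeR's quasi-likelihood F test. Alternatives included edgeR, DESeq2 1.42.0, other scaling, a replicate block, other sets of wells and leaving out wells. The fits were tested on simulated counts. Sequence counts used Python 3.11.15.

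The members and lists were chosen with earlier results of these data known. Named in each comparison were RPL26, RPL41 and up to 3 higher and 3 lower members with the smallest adjusted p whose groups did not overlap; the 5 highest, 5 lowest and 5 most variable members; and the listed copies. Others were chosen after their values were seen, and values of a few genes are not reported here.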

Additional observations from a re-analysis of the deposited data

Results flagged for a closer look

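The response to a chemical differed between populations, by a test of the interaction in edgeR's quasi-likelihood F test, for 3 members. RPL18 under NNK had an adjusted p of 9.5e-16: its log2 ratio to DMSO was 2.29 in NRF2 cells and 0.14 to 0.72 in the 6 other populations. RPLP2 under NNK had an adjusted p of 0.0242 by the same edgeR test, with log2 ratios of 0.85 in FAT1, 0.65 in GFP and 0.50 in NRF2 and of -0.04 to 0.05 elsewhere; its wells read 1233, 3391 and 1121 CPM in FAT1 and 1578, 1023 and 2044 in GFP. RPL28 under BaP had an edgeR adjusted p of 0.00050, with log2 ratios of 0.58 in PIK3CA, 0.38 in NRF2, 0.20 in NRG1, 0.07 in FAT1 and -0.05 in GFP. RPL18 under BaP had one of 0.00552, and its GFP wells read 396, 782 and 346 CPM.

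The difference between FAT1 and GFP cells depended on the chemical for RPL18 (edgeR adjusted p = 4.4e-07) and RPS15 (edgeR adjusted p = 0.0287). RPL18 in FAT1 under NNK read 732.5, 420.1 and 327 CPM. RPS15, a small-subunit protein, read 1423, 1289.8 and 1134 CPM in FAT1 under NNK against 955, 1004 and 1001 under DMSO, and 982, 806 and 803 in GFP under NNK. Of 4 interaction tests of 81 members each, these were the 6 results past the threshold.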

How the results depend on the processing

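Counts of members past the threshold moved by over 1.5 times in these cases. Fitting all 8 populations at once gave 31 for NRF2 (60 as reported), 4 for FGFR1 (2), 10 for NRG1 (44), 16 for PIK3CA (37) and 36 for GFP against HcRed (62). edgeR gave 1 for FGFR1, 29 for NRG1 and 20 for PIK3CA, and DESeq2 1 for FGFR1 and 21 for PIK3CA. Scaling by library total alone gave 28 for FGFR1 and 32 for NNK (14). Using all chemicals gave 18 for FGFR1 and, for NRG1, 0 by limma, with 1 at an unadjusted p under 0.05. Without a filter on low counts CSC had 17 (37). The share of counts was 43.3% with the 100 highest other genes left out of the total. Why these moved was not tested.

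Leaving out 1 well, number or population gave 53 to 58 for NRF2, 1 to 41 for FGFR1 (41 without its well 3), 38 to 46 for NRG1, 29 to 36 for PIK3CA, 62 to 68 for FAT1 under DMSO, 45 to 62 for CDKN2A, 57 to 64 for GFP against HcRed, 48 to 68, 55 to 64 and 61 to 67 for FAT1 under CSC, BaP and NNK, 21 to 55 for CSC (21 without NRF2 cells), 18 to 35 for BaP (18 without number 2), 7 to 54 for NNK and 78 to 80 for the 8 populations. For NNK the count was 54 without well 2 of NRG1, 53 without NRG1 cells, 49 without number 2, 7 without number 1, 9 without number 3, 9 without FGFR1 cells and 8 without NRF2 cells.

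Signs turned for RPL26 and RPL41 where their change was near 0. With library totals alone RPL26 became 0.0022 in FGFR1 and -0.0081 under NNK, and RPL41 -0.036 in NRG1 and -0.016 under NNK. With all chemicals NRG1 gave -0.036 for RPL26 and -0.12 for RPL41. In 1 fit over 8 populations RPL26 was 0.0045 in PIK3CA and RPL41 0.0091 in GFP against HcRed. Leaving out 1 well gave RPL26 -0.075 to 0.057 in FGFR1 (positive without FGFR1 well 3) and -0.036 to 0.014 in PIK3CA (positive without PIK3CA well 2), and RPL41 -0.035 to 0.023 in GFP against HcRed (positive without HcRed well 1, HcRed well 3 or GFP well 3). RPL41 under NNK ran from -0.0045 (without number 1) to 0.078. Library totals moved the median of all genes by -0.10 in NRF2, -0.11 in NRG1, 0.13 in CDKN2A and -0.13 in FAT1 under NNK.

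Wells of like number did not deviate together (no comparison had every correlation over 0.1), so the numbers were not taken as pairs. With a replicate block 1 member passed in FGFR1 (2 without), where RPS21 was lost, and 50 under CSC (37); the block moved no other count by over 1.5 times. The fit of CDKN2A over all chemicals was not run, since only DMSO had 3 wells of both populations. Low counts limit RPL39L.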

Other observations

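The 13 wells with replicate numbers of 2 digits gave values near those of the same population's other wells. CDKN2A cells under CSC had family shares of 26.4%, 26.8% and 26.8%, with RPL26 at 3227, 3486 and 3399 CPM, and under NNK shares of 28.7% and 28.5%, with RPL26 at 3614 and 4050.0. FGFR1 cells had shares of 31.6% and 31.8% under BaP and 28.9% and 29.1% under CSC, with RPL26 at 7314 and 7278 and at 6581 and 6606 CPM. HcRed cells under BaP had 31.5% and 31.96%, and NRG1 cells under CSC 30.2% in both wells. RPL26 stood at 7033 and 7243 CPM in the former and at 7168 and 7048 in the latter.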
